A study of Homo sapiens with 4 samples.

Results

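The genes described are 35 named lysosomal genes: acid hydrolases, the small proteins that activate them or carry their lipids, and proteins of the lysosomal membrane. They were taken by gene name, with earlier results of these data known, so their shares of calls may not be independent of those results. Of the 35 genes, 33 had a probe set assigned to that gene alone, among 19798 genes measured. CTSA, which shields β-galactosidase and neuraminidase from breakdown, and the tetraspanin gene CD63 had no such probe set and have no value here. All cells were HCT-116, a human colon carcinoma line, and every group carried the alteration labelled dicer-, a change in the enzyme that makes microRNAs. Total RNA was hybridised to 4 one-colour arrays at 24 h: 2 mock transfections, 1 sample given miR-124 duplex with a whole guide strand (G/P, called intact here) and 1 given the duplex with a guide strand made of segments (G10.12/P, called segmented), each at 10 nM. Each duplex thus has a single array with no replicate check, and the labels do not say whether the mock arrays came from separate cultures or whether the line is 1 clone. The p-values therefore measure the spread between the mock arrays, which may be technical. For each gene that spread was pulled toward a value shared over all genes, which weighs more than the gene's own.

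Lysosomes break down proteins, glycans, glycolipids and lipids with hydrolases that work at acid pH. Most of these enzymes are made in the endoplasmic reticulum, tagged with mannose 6-phosphate in the Golgi and sorted to the lysosome by receptors, while heavily glycosylated membrane proteins line the lysosome and transporters export the products. Many of their genes are switched on together by the transcription factors TFEB and TFE3, which bind a promoter element built around the letters CACGTG. miR-124 is abundant in neurons and, like other microRNAs, represses transcripts whose untranslated regions match its seed, a short stretch close to the guide's 5′ end. The comparison addresses how far a segmented guide strand acts like a whole one.

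The letters of that element were counted in the genes' promoters, which played no part in the choice of the list. Promoter windows of RefSeq (GRCh38.p14), from 250 bases before to 50 bases after each gene's start, were at hand for 26 of the 35 genes. The letters CACGTG, which read the same on both strands, occurred in the windows of 9 of the 26 (34.6%), against 8.77% of 27305 genes in the table. The longer run TCACGTGA, also the same on both strands and holding CACGTG within it, occurred in 5 of 26 (19.2%), against 1.18% of all. Among genes on the arrays alone, CACGTG occurred in 7 of 24 members (29.2%), against 10.6% of 15403 genes. TCACGTGA occurred in 4 of those 24 (16.7%), against 1.58%. No test of these shares was made, and 17 of the 26 windows lacked CACGTG. The share was not particular to the list: CACGTG lay in 33.3% of 24 windows of other lysosomal enzymes, 30.4% of 23 of other lysosomal membrane proteins, 33.3% of 18 of delivery genes, 30% of 20 of regulators, 26.7% of 15 of the proton pump and 5.26% of 19 of autophagy genes. The windows of 5 measured genes are shown because all hold the same letters while LAMP1 and ARSB fell, GAA and CTSD rose and MCOLN1 did not pass the test with the intact duplex. Each is printed in the gene's own direction from 20 bases before the first match to 20 bases after the last, with CACGTG in capitals.
LAMP1 (chr13:113297027-113297263, plus strand, 6 matches): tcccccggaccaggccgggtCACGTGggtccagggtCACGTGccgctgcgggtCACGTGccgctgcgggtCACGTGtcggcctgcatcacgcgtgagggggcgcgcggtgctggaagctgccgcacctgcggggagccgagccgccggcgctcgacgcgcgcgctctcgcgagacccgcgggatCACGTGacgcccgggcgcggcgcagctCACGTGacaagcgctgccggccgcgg
GAA (chr17:80101485-80101575, plus strand, 2 matches): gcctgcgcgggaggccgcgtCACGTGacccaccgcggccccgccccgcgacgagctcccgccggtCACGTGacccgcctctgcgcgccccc
MCOLN1 (chr19:7522563-7522635, plus strand, 2 matches): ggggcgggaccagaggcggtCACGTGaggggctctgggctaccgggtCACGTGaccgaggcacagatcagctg
CTSD (chr11:1763949-1763994, minus strand, 1 match): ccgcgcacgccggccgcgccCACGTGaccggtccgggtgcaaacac
ARSB (chr5:78986093-78986138, minus strand, 1 match): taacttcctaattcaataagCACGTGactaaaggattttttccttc
The matches of LAMP1 started at positions from -192 to -1 relative to its start site, those of GAA at -76 and -31, and those of MCOLN1 at -41 and -14. The other genes with the letters were GALNS and NEU1, which were measured, and CTSA and CD63, which were not. A match describes the sequence and does not show that a factor binds there.

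Levels are given as log2 intensities, so that a difference of 1 is a 2-fold difference, and a level is compared only with that of the same probe set on another array. Each gene stands by its brightest probe set. A gene is said to have risen or fallen where limma's adjusted p, over all 19798 genes, was under 0.05. A count by size, with no test, stands beside it and takes the genes that differ from each mock array by 1.5-fold or more in 1 direction. Of the 33 genes, 32 had a mean level above the median of all genes (log2 6.76), ARSA being the exception. Among markers of the line, 7 of 8 measured epithelial and colon genes lay above that median, with EPCAM between 13.01 and 13.06 on the 4 arrays, while VIL1 lay below it. In that list CDH1 and CDX2 rose with the intact duplex, by 0.79 and 0.69 (limma adjusted p = 0.0228 and 0.0291), and KRT18 stood at -0.52 without passing. Of 16 markers of other cell types 2 lay above the median of all genes, and both rose with the intact duplex. ACTA2, a smooth muscle actin, read 7.21 and 7.14 with mock, 9.40 with the intact and 7.34 with the segmented duplex (change with the intact duplex 2.23, limma adjusted p = 0.00822). COL1A1, a collagen chain, read 8.71 and 8.41, then 9.76 and 9.21 (1.20, limma adjusted p = 0.0208). The part of these markers in the lysosomal values was not tested. The 7 markers of macrophages and blood cells, which are rich in lysosomes, had log2 levels of 1.95 to 5.13, and their summed intensities were 109 and 113 in the mock samples, 97.4 with the intact and 108 with the segmented duplex. In these bulk samples fewer cells and less RNA per cell cannot be told apart. Of the 33 genes 26 (78.8%) were higher on mock array 1 than on mock array 2, against 55.0% of all genes. The median of that difference was small, at 0.07 for the list and 0.02 for all genes. None of the 33 differed 1.5-fold between the mock arrays, and only 639 of all 19798 genes did, so this does not set the list apart.

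With the intact duplex the lysosomal list moved both ways. Of 33 genes 7 fell and 10 rose, and 16 did not pass. That is 21.2% lower and 30.3% higher, where 10.4% and 14.5% of all genes were called. By size, 6 genes were at least 1.5-fold lower than both mock arrays and 8 at least 1.5-fold higher, against 9.52% and 13.7% of all genes. All 33 genes are among the brighter 60% of genes. When the dimmest 40% were left out before a new fit, 8 of the 33 fell and 15 rose, and 24% and 34.5% of the remaining 11879 genes did. The genes gained were CTSH, called lower, and NAGLU, GALNS, CTSB, SMPD1 and PSAP, called higher. In that fit the list's share of calls was close to the background in the lower direction and somewhat above it in the higher direction. That difference between shares was not tested, and the list was chosen with earlier results of these data known. The list's median change was 0.26 on the log2 scale, against 0.02 over all genes.

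**Figure D1:**
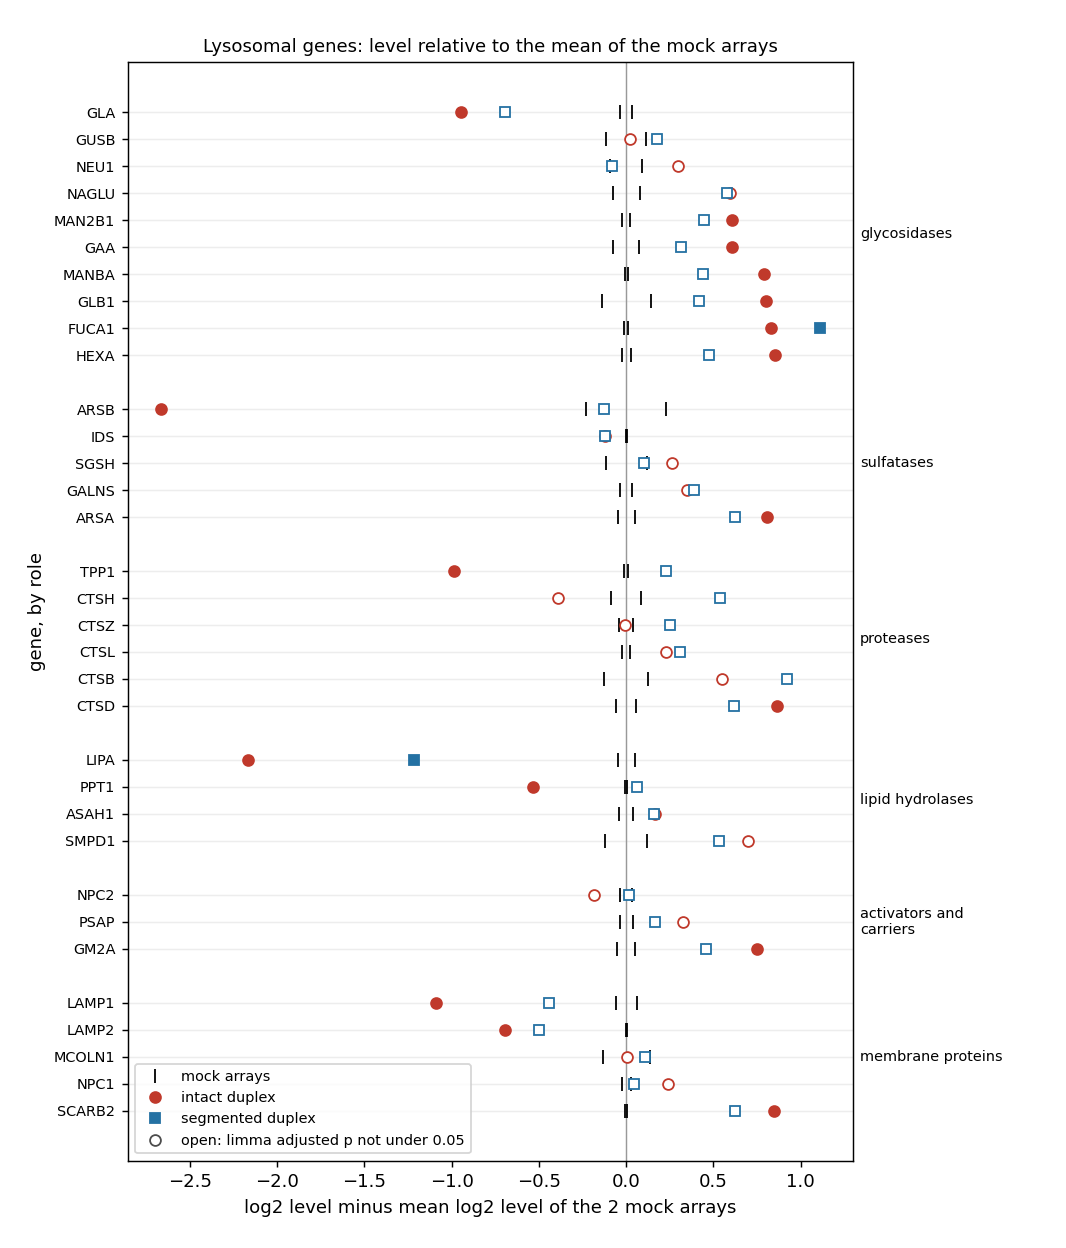
Log2 level of each of the 33 measured genes on each array minus the mean of the 2 mock arrays (horizontal axis), with genes on the vertical axis by role; ticks are the mock arrays, circles the intact and squares the segmented duplex, filled where the limma adjusted p is under 0.05. LIPA and ARSB lie furthest to the left with the intact duplex, at -2.17 and -2.67, while with that duplex the glycosidases other than GLA lie at or right of the mock arrays.

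The glycosidases, which trim sugars from glycoproteins and glycolipids, had a median change of 0.61 with the intact duplex. Of 10 measured, 6 rose, 1 fell and 3 did not pass, where 14.5% of all genes were called higher. In the fit without the dimmest 40%, those 6 and NAGLU (limma adjusted p = 0.00426) were called higher, where 34.5% of the genes left were. MANBA, a β-mannosidase, stood at 9.61 and 9.59 after mock transfection, 10.39 with the intact and 10.04 with the segmented duplex. The intact array was thus 1.73-fold above mock (log2 change 0.79, limma SE 0.12, adjusted p = 0.0218), while the segmented array, also above both mock arrays, did not pass (0.44, adjusted p = 0.119). FUCA1, which removes fucose, was at 10.18 and 10.21 in the mock samples, 11.03 with the intact and 11.31 with the segmented duplex. It rose by 0.83 and by 1.11 (limma adjusted p = 0.0201 and 0.0372), and was the 1 gene of the list that rose with both duplexes. HEXA, the α chain of the hexosaminidase that degrades the ganglioside GM2, rose by 0.85 with the intact duplex and stood at 0.48 with the segmented duplex, without passing. The dimmer probe sets of HEXA gave 0.74 and 0.19 with the intact duplex. GLB1, the lysosomal β-galactosidase, rose by 0.80 with the intact duplex, the α-mannosidase MAN2B1 by 0.61, and GAA, the acid α-glucosidase that degrades glycogen, by 0.61.

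GLA, the α-galactosidase that clears globotriaosylceramide, went the other way. Its levels were 10.77 and 10.69 after mock transfection, 9.78 with the intact and 10.03 with the segmented duplex. Both duplex arrays lay below both mock arrays, and the fall with the intact duplex was 0.95 (limma SE 0.12, adjusted p = 0.0168). The value with the segmented duplex was -0.70 (adjusted p = 0.0624). Its second probe set gave the same direction with either duplex. NAGLU, at 0.60 with the intact duplex (limma adjusted p = 0.0519), NEU1 at 0.29 and GUSB at 0.02 did not pass. NAGLU and NEU1 remove N-acetylglucosamine and sialic acid, and GUSB, the β-glucuronidase, is often used as a reference gene.

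The sulfatases, which take sulfate off glycosaminoglycans and sulfolipids, held the largest fall of the list. ARSB, which removes sulfate from dermatan and chondroitin sulfate, had levels of 7.50 and 7.95 in the mock samples, 5.06 with the intact and 7.60 with the segmented duplex. The intact array lay far below both mock arrays, a 6.35-fold difference (log2 change -2.67, limma SE 0.23, adjusted p = 0.00965), whereas the segmented array lay between them (-0.13, adjusted p = 0.774). The gap of 0.46 between the mock arrays was the widest of the 33 genes.

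The other 3 probe sets of ARSB did not show a change of that size. The first of them read 4.85 and 4.84 after mock transfection, 4.62 with the intact and 5.14 with the segmented duplex. The next read 4.92 and 4.90, then 4.81 and 4.79, and the dimmest 3.63 and 3.36, then 2.96 and 3.52. All 3 were dim in every sample, and their changes with the intact duplex were -0.23, -0.10 and -0.53, in the same direction as the brightest but far smaller. The large value for ARSB thus rests on 1 probe set of 4, and what each probe set covers of the transcript was not tested.

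**Figure D2:**
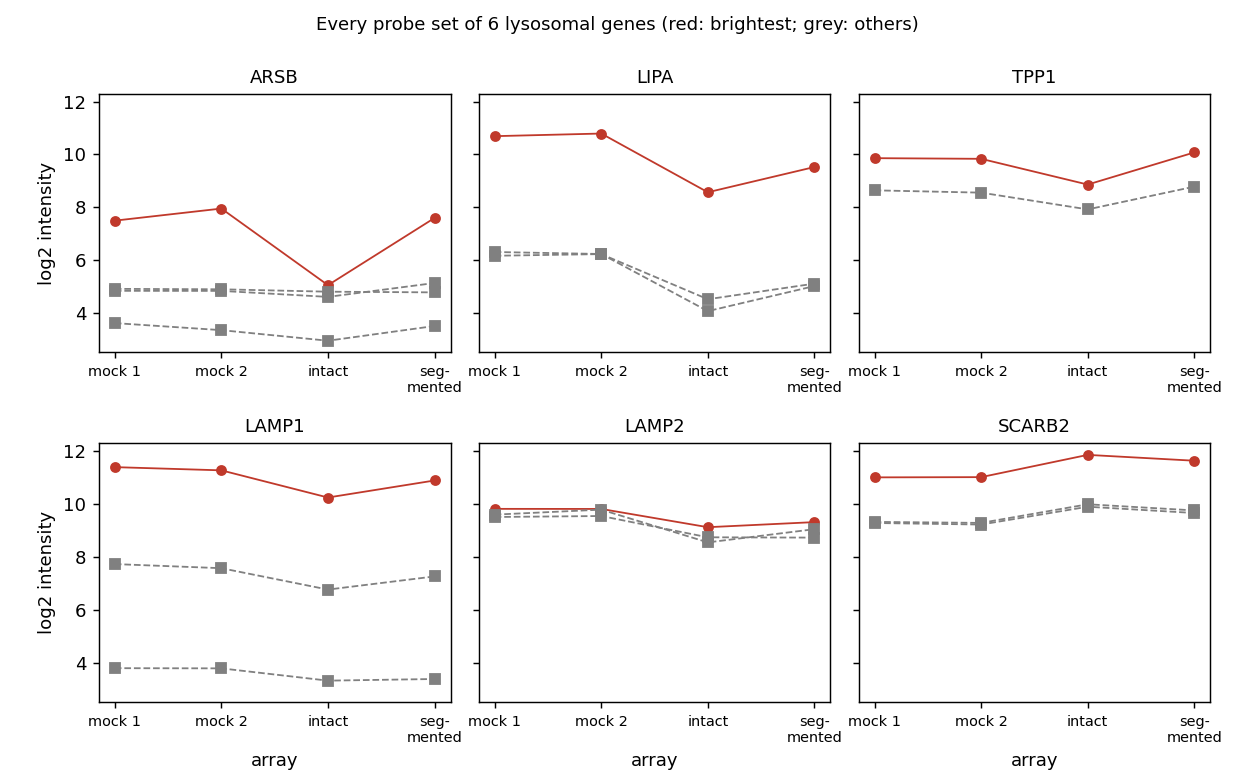
Log2 intensity (vertical axis) of every probe set of 6 genes on the 4 arrays (horizontal axis); each line joins the values of 1 probe set, red for the brightest and grey for the others. The 3 grey ARSB probe sets stay between 2.96 and 5.14 on all arrays while the red one drops to 5.06 with the intact duplex, and all probe sets of LIPA, LAMP1 and LAMP2 lie lower with the intact duplex than on the mock arrays.

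Of the other sulfatases, ARSA, which acts on the myelin lipid sulfatide, rose by 0.81 with the intact duplex, from 5.51 and 5.60 to 6.36, with 6.18 on the segmented array. IDS, SGSH and GALNS, which act on heparan, dermatan or keratan sulfate, did not pass with either duplex. IDS was among the steadiest genes of the list, at 10.73 and 10.72 on the mock arrays and 10.60 on both duplex arrays. Its segmented minus intact difference had a 95% limma interval from -0.39 to 0.39, and 2 of its 4 probe sets went the other way from the brightest. SUMF1, the enzyme that converts a cysteine in the active site of every sulfatase and without which they are inactive, belongs to a second list of lysosomal enzymes. Its levels were 10.83 and 10.89 in the mock samples, 9.76 with the intact and 11.23 with the segmented duplex. SUMF1 fell by 1.10 with the intact duplex (limma adjusted p = 0.0128), and the segmented array lay above both mock arrays without passing (0.37, adjusted p = 0.16).

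Among the proteases 1 gene fell, 1 rose and 4 of 6 did not pass with the intact duplex. TPP1, a peptidase that removes tripeptides from protein ends and is lost in a childhood form of neuronal ceroid lipofuscinosis, stood at 9.86 and 9.83 after mock transfection, 8.86 with the intact and 10.08 with the segmented duplex. The intact array was 1.98-fold below mock (log2 change -0.99, limma SE 0.12, adjusted p = 0.0149), and the segmented array lay above both mock arrays without passing (0.23, adjusted p = 0.316). The second probe set of TPP1 gave -0.68 and 0.18. CTSD, the main aspartic protease of lysosomes, rose by 0.86, from 8.79 and 8.67 to 9.59, with 9.35 on the segmented array.

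The cysteine protease genes CTSB, CTSH, CTSL and CTSZ did not pass with either duplex. CTSH, an aminopeptidase, had levels of 8.74 and 8.57 in the mock samples, 8.26 with the intact and 9.19 with the segmented duplex, so that the duplex arrays lay on opposite sides of the mock arrays. CTSB stood at 9.58 and 9.83, then 10.26 and 10.63. Its segmented array was 1.90-fold above mock and at least 1.5-fold above each mock array, with a limma adjusted p of 0.0619. CTSL and CTSZ lay within 0.31 of mock on the log2 scale with either duplex.

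The lipid hydrolases held the 1 gene of the list that fell with both duplexes. LIPA, the acid lipase that frees cholesterol and fatty acids from lipoprotein lipids, stood at 10.69 and 10.79 after mock transfection, 8.57 with the intact and 9.52 with the segmented duplex. Both duplex arrays lay well below both mock arrays. LIPA fell 4.50-fold with the intact duplex (log2 change -2.17, limma SE 0.13, adjusted p = 0.00824) and 2.32-fold with the segmented duplex (-1.22, limma SE 0.13, adjusted p = 0.0371). Its other 2 probe sets gave -2.20 and -1.67 with the intact duplex, and -1.25 and -1.08 with the segmented duplex, so that all 3 probe sets were alike in direction and near in size.

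PPT1, which removes palmitate from proteins and is lost in an infantile form of the same neuronal disease group as TPP1, read 11.10 and 11.09 in the mock samples, 10.56 with the intact and 11.16 with the segmented duplex. It fell by 0.53 with the intact duplex, close to the threshold of the test (limma adjusted p = 0.0491) and short of 1.5-fold. SMPD1, the acid sphingomyelinase, at 0.70 (adjusted p = 0.0515), and ASAH1, the acid ceramidase, at 0.16 did not pass with the intact duplex in the main fit. SMPD1 lay just past the threshold there. It passed as higher in every alternative fit of the closing section that allowed a test (limma adjusted p from 0.000168 to 0.0464).

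Among activators and carriers GM2A, which lifts the ganglioside GM2 to hexosaminidase, rose by 0.75 with the intact duplex (limma adjusted p = 0.0274), from 10.80 and 10.70 to 11.50, with 11.20 on the segmented array. GM2A and HEXA, which act on the same lipid, thus both rose with the intact duplex. Its other 2 probe sets, both dimmer, gave 0.05 and 0.22 with the intact duplex, and with the mean of all 3 GM2A no longer passed. PSAP, the precursor of the saposins, stood at 0.32 and 0.16 above mock with the intact and the segmented duplex and did not pass. NPC2, which hands cholesterol freed in the lysosome to NPC1, stood at -0.18 and 0.02 and did not pass either.

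The membrane proteins divided. LAMP1 and LAMP2, the most abundant glycoproteins of the lysosomal membrane, fell with the intact duplex and SCARB2, the membrane receptor that carries β-glucocerebrosidase to lysosomes, rose. LAMP1 read 11.39 and 11.27 after mock transfection, 10.24 with the intact and 10.89 with the segmented duplex. Its fall with the intact duplex was 2.13-fold (log2 change -1.09, limma SE 0.13, adjusted p = 0.0144), and the segmented array lay below both mock arrays without passing (-0.44, adjusted p = 0.135). LAMP2 read 9.81 on both mock arrays, 9.12 with the intact and 9.31 with the segmented duplex, a fall of 0.69 with the intact duplex (limma adjusted p = 0.0282). All 3 probe sets of each gene were lower with either duplex than with mock.

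SCARB2 read 11.00 and 11.01 after mock transfection, 11.85 with the intact and 11.63 with the segmented duplex. It rose 1.80-fold with the intact duplex (limma adjusted p = 0.0193). The segmented array was 1.54-fold above mock (adjusted p = 0.0692), and all 3 probe sets lay higher with both duplexes. MCOLN1, a calcium channel of the lysosome, stood at 0.01 and NPC1, the cholesterol exporter, at 0.24 with the intact duplex, and neither passed. The other 2 probe sets of NPC1, both dimmer, went the other way.

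Across roles, 20 of the 33 genes had more than 1 probe set. In 17 of the 20 all probe sets went in 1 direction with the intact duplex, and in 15 with the segmented duplex. In 12 of the 17 genes that passed with the intact duplex there was a second probe set to compare. In all 12 every probe set went in the direction of the brightest, though for ARSB and GM2A the others changed far less. So did 1 probe set of HEXA, at 0.19 against 0.85 for its brightest. The share over all genes was not counted. The genes with the promoter letters were not alike in direction. Of the 7 measured genes with CACGTG, LAMP1 and ARSB fell with the intact duplex, GAA and CTSD rose, and GALNS, MCOLN1 and NEU1 did not pass. Of 17 members whose windows lacked the letters, 4 fell and 5 rose. Among all 1639 genes with the letters 13.7% were called lower and 15.9% higher, and among 13764 without them 10.6% and 14.9%.

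With the segmented duplex 1 gene of the list fell, LIPA, and 1 rose, FUCA1, and 31 did not pass. Each is 3.03% of 33 genes, where 2.68% of all genes were called lower and 3.31% higher, so the count was at the background. By size, GLA and LIPA were at least 1.5-fold lower than both mock arrays (4.89% of all genes) and FUCA1, CTSB and SCARB2 at least 1.5-fold higher (7.37%). Measured against mock array 2 alone, 9 genes instead of 5 were past 1.5-fold, and against mock array 1 alone 6. The list's median was 0.25, against 0.01 for all genes. The count depended strongly on the genes admitted to the test. With the dimmest 40% left out 4 of 33 fell and 13 rose, while 15.3% and 25% of the 11879 remaining genes did. The 4 were GLA, LIPA, LAMP1 and LAMP2, and the 13 were HEXA, MAN2B1, MANBA, NAGLU, FUCA1, ARSA, GALNS, CTSB, CTSD, CTSH, SMPD1, GM2A and SCARB2. Both comparisons with mock use the same mock arrays.

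The direct comparison of the duplexes, which does not use the mock levels, separated a small number of genes. Of 33 genes 6 were at least 1.5-fold higher with the segmented than with the intact duplex, and 0 were 1.5-fold lower. Over all genes 5.02% were that much higher and 4.96% that much lower. The 6 genes were ARSB (log2 difference 2.54, 95% limma interval 1.78 to 3.30), TPP1 (1.21, 0.82 to 1.61), LIPA (0.95, 0.54 to 1.37), CTSH (0.93, 0.47 to 1.39), LAMP1 (0.64, 0.22 to 1.07) and PPT1 (0.59, 0.21 to 0.98). None passed limma's adjusted threshold, which 0% of all 19798 genes did. Their adjusted p-values ran from 0.181 to 0.221, and the same 6 genes were those of the list with an unadjusted p under 0.05. These intervals take their spread from the mock pair alone, mostly from its value shared over all genes. The size of the ARSB difference rests on its brightest probe set, as the others, all dim, gave 0.52, -0.03 and 0.56. With the mean of all probe sets 5 genes of the list, in place of 6, were at least 1.5-fold higher.

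When the dimmest 40% were left out before testing, the same 6 genes passed, all higher with the segmented duplex, and 0 passed as lower. Of the 11879 genes then tested 8.68% were higher and 6.89% lower. The limma adjusted p was 0.00204 for ARSB, 0.0029 for TPP1, 0.00647 for LIPA, 0.00822 for CTSH, 0.0222 for LAMP1 and 0.0233 for PPT1. The genes differ in how they stand to mock. LIPA and LAMP1 were below both mock arrays with either duplex, ARSB, TPP1 and PPT1 were below them with the intact duplex alone, and CTSH was below them with the intact and above them with the segmented duplex.

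The other 27 genes were less than 1.5-fold apart between the duplexes. The median difference over the list was -0.0005, and -0.02 over all genes. Among them were all 10 genes that rose with the intact duplex. HEXA was lower by 0.37 with the segmented duplex (interval -0.77 to 0.02), GLB1 by 0.38 (-0.94 to 0.18), MANBA by 0.35 (-0.74 to 0.04) and SCARB2 by 0.22 (-0.61 to 0.17). FUCA1 was higher by 0.28 (-0.11 to 0.67). These intervals reach past 1.5-fold in 1 direction, so likeness of the duplexes is not shown for these genes.

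**Figure D3:**
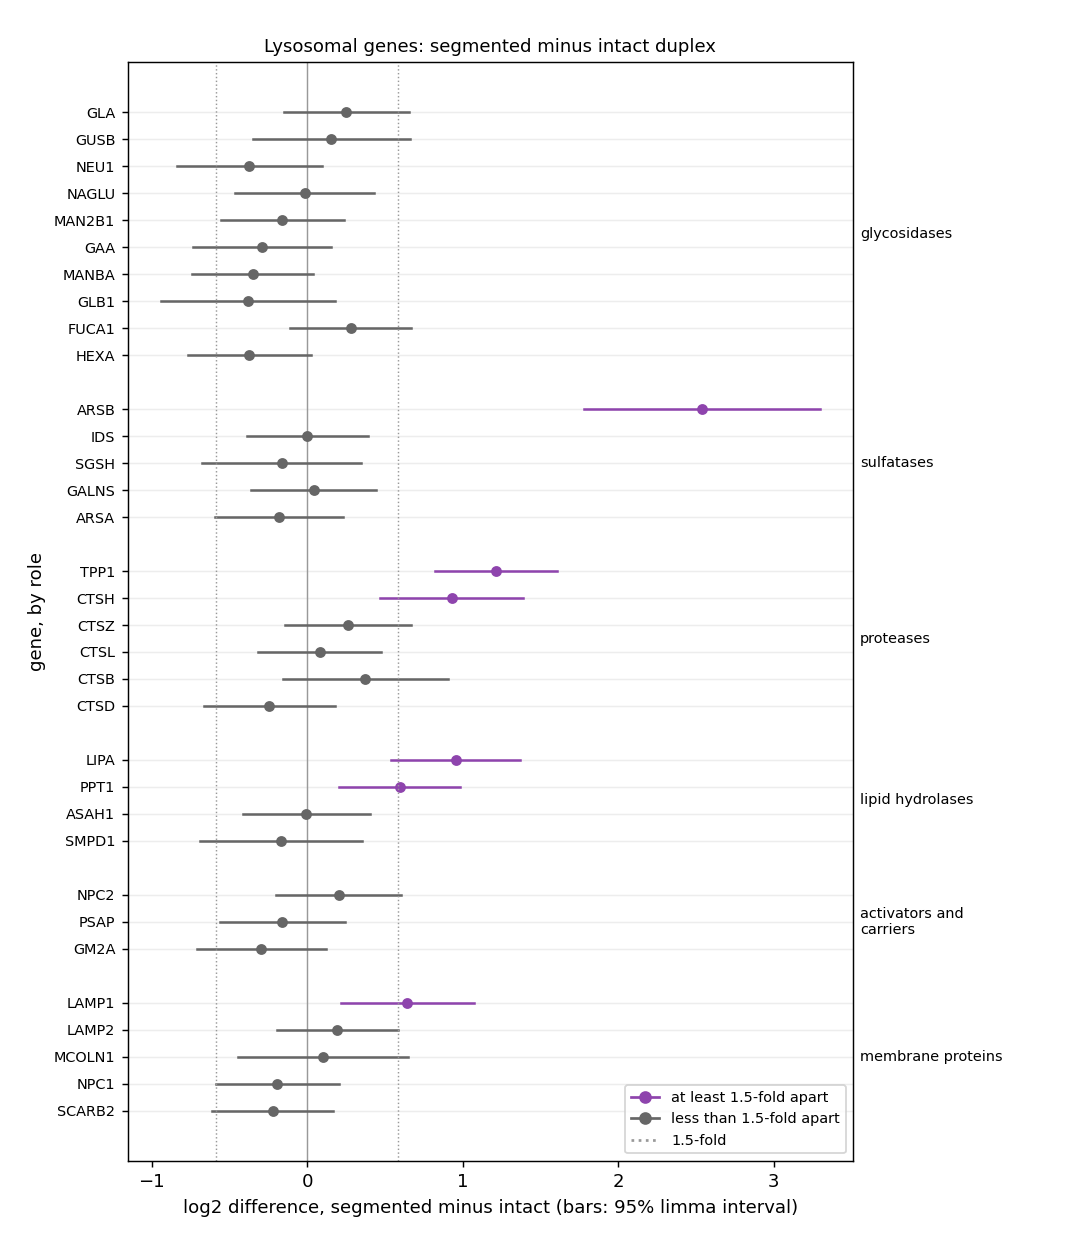
Segmented minus intact log2 difference for each of the 33 genes (points, horizontal axis) with its 95% limma interval (bars), genes by role on the vertical axis, and dotted lines at 1.5-fold. The 6 genes at least 1.5-fold apart, in purple, all lie to the right, from PPT1 at 0.59 to ARSB at 2.54, and no gene lies past 1.5-fold to the left. Each gene stands by its brightest probe set, and the other probe sets of ARSB differed far less.

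Further lysosomal genes were taken from lists written for their roles. Their shares are set against all genes, dim ones included. With the dimmest 40% left out, 24% of the remaining genes were called lower and 34.5% higher with the intact duplex. The further lists were not counted in that fit, so the part of expression level in their shares was not tested. Of 28 other lysosomal enzymes measured, 3 were lower and 3 higher past the test with the intact duplex (median 0.06), which is 10.7% each way, near the 10.4% and 14.5% of all genes. NAAA, an amidase of fatty acid ethanolamides, fell by 1.41, CTSC, which activates serine proteases, by 1.12 and SUMF1 by 1.10. HGSNAT, an acetyltransferase of heparan sulfate breakdown, rose by 1.20, the mannosidase MAN2B2 by 1.03 and the acid phosphatase ACP2 by 0.79. With the segmented duplex 1 rose, HGSNAT, by 1.03 (limma adjusted p = 0.0401).

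Of 25 other lysosomal membrane proteins measured, 7 (28%) were lower and 5 (20%) higher past the test with the intact duplex, against 10.4% and 14.5% of all genes, while 2 passed with the segmented duplex, both lower. SLC17A5, which exports sialic acid from lysosomes, had levels of 10.01 and 10.23 after mock transfection, 7.48 with the intact and 8.84 with the segmented duplex. It fell with both, with log2 changes of -2.64 and -1.28 (limma adjusted p = 0.00824 and 0.0409). The sialomucin CD164 fell with both as well (-2.48 and -2.16), and LAPTM4A fell by 1.10 with the intact duplex. The channel MCOLN3, MFSD8 and TMEM106B rose by 0.93, 0.92 and 0.80 with the intact duplex, and 1 of 2 probe sets of MFSD8 and 1 of 4 of TMEM106B went the other way.

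Of 22 genes of delivery to the lysosome, 4 fell (18.2%) and 5 rose (22.7%) with the intact duplex, against 10.4% and 14.5% of all genes. The sorting adaptor GGA2 fell by 1.42, AP1G1 of the AP-1 coat by 0.94 and the retromer subunit VPS35 by 0.88. The tethering subunits VPS41 and VPS33A rose by 1.66 and 1.30, and GNPTG, part of the enzyme that adds the mannose 6-phosphate tag, by 0.82. VPS41, measured by 1 probe set, rose from 5.17 and 5.54, levels below the median of all genes. GGA2 was the 1 gene of this list that passed with the segmented duplex (-1.14, limma adjusted p = 0.0377).

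Of 22 regulators 1 fell (4.5%) and 5 rose (22.7%) with the intact duplex, against 10.4% and 14.5% of all genes. In either direction 27.3% passed, against 24.9% of all genes. The list's median change was 0.37, and 19 of the 22 changes (86.4%) were positive, against 51.5% over all genes. TFEB stood at 5.86 and 5.72 in the mock samples, 5.96 with the intact and 5.73 with the segmented duplex and did not pass with either. TFE3 stood at 0.61 with the intact duplex (limma adjusted p = 0.0513). TFEC, a relative of TFEB, rose by 2.05 from 3.35 and 3.25, levels below the median of all genes, and TSC1 and RRAGD, which act on the kinase mTOR, rose by 0.71 and 0.70, with 1 of 2 RRAGD probe sets the other way. RPTOR, a subunit of the mTOR complex, fell by 0.64. With the segmented duplex MITF fell by 0.96 (limma adjusted p = 0.049), from 5.63 and 5.81, also below the median of all genes.

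Of 19 subunits of the proton pump that acidifies the lysosome, 2 passed as lower and 4 as higher with the intact duplex (31.6%, against 24.9% of all genes), and the same 2, ATP6V0E1 and ATP6V0A2, fell with the segmented duplex. ATP6V0E1 fell by 3.55 and 2.83 and ATP6V0A2 by 1.45 and 1.23, whereas ATP6V0E2, the paralog of ATP6V0E1, rose by 1.20 and ATP6V0A1, the paralog of ATP6V0A2, by 0.91 with the intact duplex. ATP6V1F rose by 0.91. Of 20 autophagy genes 3 fell (15%) and 8 rose (40%) with the intact duplex, where 10.4% and 14.5% of all genes, dim ones included, did. ATG3 fell by 1.39, ATG12 by 1.05 and BECN1 by 0.88, and ULK1 rose by 1.51, WIPI2 by 1.29 and NBR1 by 0.94. BECN1 alone passed with the segmented duplex, lower by 0.81 (limma adjusted p = 0.049).

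**Figure D4:**
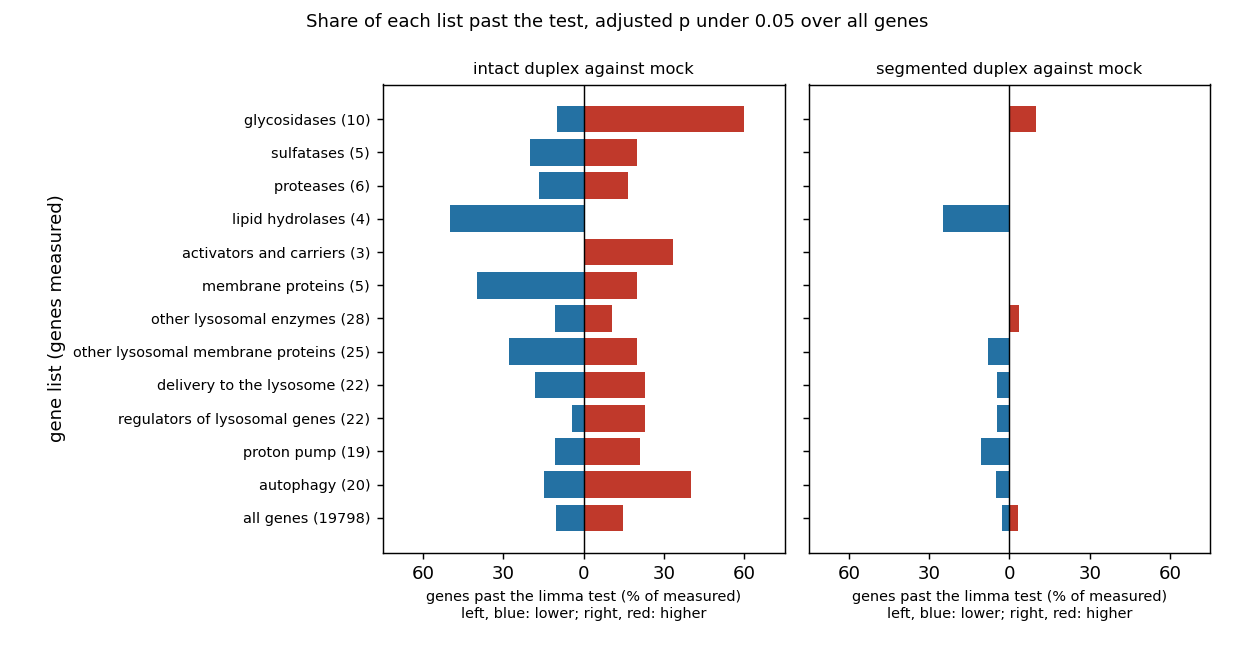
Percent of the measured genes of each list (vertical axis, number measured in brackets) that passed the limma test as lower (blue, left) or higher (red, right) with the intact duplex (left panel) and the segmented duplex (right panel), with all genes in the bottom row. The glycosidases have the longest bar to the right with the intact duplex, 60%, and the segmented panel holds few calls in any list.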

How the data were processed

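Per the labels, biotin-labelled RNA of 4 samples was read on one-colour arrays, and the deposited intensities, 1 linear value per probe set and array, were made by the authors with RMA, per the submitters' processing notes. The design assumed log2 values, so log2 was taken with no pseudocount. RMA, which corrects background, quantile-normalizes and sums up the probes of a set, makes the arrays' distributions nearly alike, so a shift of most genes would not show.

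Of 52377 probe sets, 35184 had 1 gene, 374 several and 16819 none; 35134 symbols were updated through a RefSeq table. Tests used limma (version 3.58.1, under R 4.3.3) on group means, with eBayes (1 residual and 2.89 prior degrees of freedom) and Benjamini-Hochberg adjustment over 19798 genes at 0.05. The script was checked on simulated data. All members, and in each further list up to 3 falls and 3 rises past the test, were to be named; TFEB and TFE3 were added after their values were seen. Members and lists were chosen with earlier results of these data known. The alternatives are given in the closing section.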

Additional observations from a re-analysis of the deposited data

How the results depend on the processing

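For the intact duplex the number of the 33 genes that passed stayed between 17 and 25 under a further quantile normalization, centring, leaving out the dimmest 40% of genes, a trended and robust prior and the mean of all probe sets. GAA missed the threshold when arrays were centred and with the mean of all probe sets, PPT1 with the further normalization, and GM2A with the mean of all probe sets, where its change was 0.34 in place of 0.75. ARSB still passed with that mean, but its change was -0.88 in place of -2.67 (limma adjusted p = 0.0145). SMPD1, which did not pass in the main fit, passed as higher under each of these alternatives. NAGLU, GALNS and CTSB passed as higher without the dimmest 40%, with the trended and robust prior and with the mean of all probe sets. The segmented count of 2 became 17 with the dimmest 40% left out, 20 with the trended and robust prior and 4 with the mean of all probe sets. Without the dimmest genes the number tested and the moderated variance changed, the limma SE of GLA from 0.124 to 0.110. The prior degrees of freedom were estimated anew as well, so the cause was not told apart. The difference of the duplexes went from 0 genes to 6 with the dimmest 40% left out and to 6 with the trended and robust prior. At 2-fold in place of 1.5-fold, 3 genes were past the size limit with the intact duplex, 2 with the segmented duplex and 2 between the duplexes. Apart from the fit with the dimmest 40% left out, the share of all genes was not counted under these alternatives. Whether the list or the whole array moved under them was not tested. Leaving out 1 mock array left no residual degrees of freedom and hence no test. The segmented count by size was then 9 without mock replicate 1 and 6 without mock replicate 2, in place of 5, and the median change with the intact duplex 0.36 and 0.21. Centred on array medians, the list's median was 0.17 with the intact and 0.19 with the segmented duplex. With the mean of all probe sets the median difference of the duplexes was -0.054 in place of -0.0005. No passing gene changed sign in any of these. No detection calls were used, so what dim probe sets can show is limited.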
